A study of Mus musculus with 6 samples.

Results

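The set described here is 10 genes that natural killer (NK) cells and cytotoxic T cells express. They encode perforin, granzymes A and B, a granule membrane protein (Nkg7) and 3 receptors of NK cells. The set also holds the genes for a receptor subunit (Il2rb), a chemokine (Ccl5) and a transcription factor (Eomes). All 10 were picked by their gene symbols, are among the 14992 genes of the deposited count table, and had enough reads to be tested. The libraries came from mouse whole bone marrow. Donor marrow from Dnmt3a knockout mice had been grafted into irradiated C57/BL6 mice, and every recipient carried such a graft. One group of 3 libraries came from recipients given vehicle, the other group of 3 from recipients given an inhibitor of PI3Kalpha and PI3Kbeta at 75 mg/kg, both for 21 days. The treatment text describes the grafted cells as leukemic. The labels give neither the knockout allele, the age and sex of the mice, nor a cell sort, so any recipient cell that had survived irradiation was measured together with the graft. They also do not say that each library is a separate mouse, so p-values reflect only how these libraries spread, which may be technical.

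NK cells and cytotoxic T cells kill by releasing granules onto a target cell. Perforin makes pores in the target membrane, and granzymes, which are serine proteases, enter through them and start cell death. NK cells are driven by interleukin 15, which signals through the receptor subunits encoded by Il2rb and Il2rg, and they decide on a target by weighing activating receptors such as NKp46 (Ncr1) and NK1.1 (Klrb1c) against inhibitory ones such as the pair of CD94 (Klrd1) and NKG2A (Klrc1). Eomes and T-bet (Tbx21) are related transcription factors of the T-box family that NK cells need to mature. NK cells develop in the bone marrow, where mature T cells also reside.

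Promoter windows in the RefSeq table (build GRCm38.p6) matched 7 of the 10 genes, and 3, Klrd1, Il2rb and Ccl5, had none. Shown are the windows of the genes on which the results turn: Prf1, which passed the test, Nkg7, which lay in the other direction, Gzmb, and Ncr1, where vehicle libraries differed most. Each runs 5′ to 3′ on the gene's strand and ends before the first transcribed base in RefSeq or GENCODE. Capitals mark matches to the core letters of RUNX (TGTGGT, or ACCACA on the other strand), ETS (AGGAAG or CTTCCT) and STAT (TTCNNNGAA) motifs.
Prf1, chr10:61297586-61297750, plus strand: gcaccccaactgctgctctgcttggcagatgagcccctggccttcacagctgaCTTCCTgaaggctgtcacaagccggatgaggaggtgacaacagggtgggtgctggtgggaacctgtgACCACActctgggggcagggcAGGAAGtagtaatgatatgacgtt
Nkg7, chr7:43436888-43437072, plus strand: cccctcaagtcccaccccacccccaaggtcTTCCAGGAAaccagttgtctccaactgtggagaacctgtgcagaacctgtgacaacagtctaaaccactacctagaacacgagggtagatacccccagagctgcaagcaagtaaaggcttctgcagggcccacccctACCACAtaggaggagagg
Gzmb, chr14:56262335-56262584, minus strand: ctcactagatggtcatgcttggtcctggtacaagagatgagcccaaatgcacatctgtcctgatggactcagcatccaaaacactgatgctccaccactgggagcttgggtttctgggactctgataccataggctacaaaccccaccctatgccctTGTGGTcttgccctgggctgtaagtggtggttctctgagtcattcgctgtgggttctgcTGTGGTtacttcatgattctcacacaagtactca
Ncr1, chr7:4337465-4337714, plus strand: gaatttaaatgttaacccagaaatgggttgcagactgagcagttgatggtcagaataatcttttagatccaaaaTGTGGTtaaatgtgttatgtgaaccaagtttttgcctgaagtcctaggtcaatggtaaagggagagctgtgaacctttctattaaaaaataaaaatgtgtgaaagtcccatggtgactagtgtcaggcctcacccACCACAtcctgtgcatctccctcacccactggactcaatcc

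Over the full 250 bases before the RefSeq start, searched on both strands, the RUNX letters occurred in 6 of the 7 windows (Prf1, Gzma, Gzmb, Nkg7, Klrb1c and Ncr1), while 14% of all 32841 windows of that length held them. The letters of the T-box core, AGGTGT, occurred in 3 of 7 (Prf1, Gzma and Nkg7) against 11.8% of all windows. In Prf1 and Nkg7 these began 24 and 14 bases before the start, in the part not printed, as were the ETS letters of Nkg7. The ETS letters were in 3 of 7 windows (Prf1, Nkg7 and Klrb1c) against 29.5%, and the STAT letters in 1 of 7 (Nkg7) against 7.02%. A FOXO core, TGTTTAC, was in 0 of 7 windows and in 3.17% of all. No match of a motif overlapped a match of another motif, although 2 ETS matches in Klrb1c overlapped each other. All 250 bases of the Klrb1c window lay inside the span that GENCODE gives the gene, so its matches are not upstream of that start. These matches describe letters in the windows only. The genes whose windows hold RUNX letters include both Prf1 and Nkg7, whose fold changes had opposite signs.

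Total counts ran from 28198638 to 59384880 per library, and the 10 genes together held 5815 to 14436 counts per library. Their lowest counts in a single library were 107 for Prf1 and 107 for Ncr1. Vehicle 1 stood apart from vehicles 2 and 3 in marker genes of other cells: macrophage marker genes summed to 5195 CPM (a read count scaled to library size) in vehicle 1 against 1465 and 1609 CPM in vehicles 2 and 3, and erythroid marker genes to 3808 against 920.4 and 1067 CPM. Values without single libraries are given beside the results that they move most. In the sentences below, values of single libraries come in the order vehicle 1, 2 and 3, then inhibitor 1, 3 and 5. Dnmt3a itself, the gene deleted in the donors, was at 15.4 to 24.9 CPM in the 6 libraries, with no label saying which exons were deleted.

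With the inhibitor, Prf1 fell 2.58-fold and was the only 1 of the 10 genes to pass edgeR's quasi-likelihood test at an adjusted p under 0.05 over all 12806 tested genes; 1.19% of all tested genes were called lower and 0.633% higher, 1.83% in all. Of the 10 genes, 9 had negative log2 fold changes and Nkg7 a positive one. The median over the 10 was -0.72 on the log2 scale, beside 0.000931 over all tested genes. In 6 genes (Prf1, Gzmb, Klrb1c, Il2rb, Ccl5 and Eomes) every inhibitor library lay below every vehicle library, which held for 16.2% of all tested genes, and in Nkg7 every inhibitor library lay above, which held for 14.4%. Gzma, Klrd1 and Ncr1 overlapped between the groups. At an unadjusted p under 0.05, 6 of the 10 genes were lower, as were 11.9% of all, and 1 was higher, as were 9.68%. DESeq2 called 4 of the 10 lower (Prf1, Gzmb, Il2rb and Ccl5), against 7.23% of all genes, and Nkg7 higher, against 4.9%. With limma voom and quality weights, which gave vehicle 1 the lowest weight, 6 of the 10 were called lower, against 11.6% of all genes, and 1 higher, against 10.7%. In bulk marrow, fewer cells of a type and less RNA per cell cannot be told apart. The plot of the 10 genes by library shows these patterns.

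**Figure D1:**
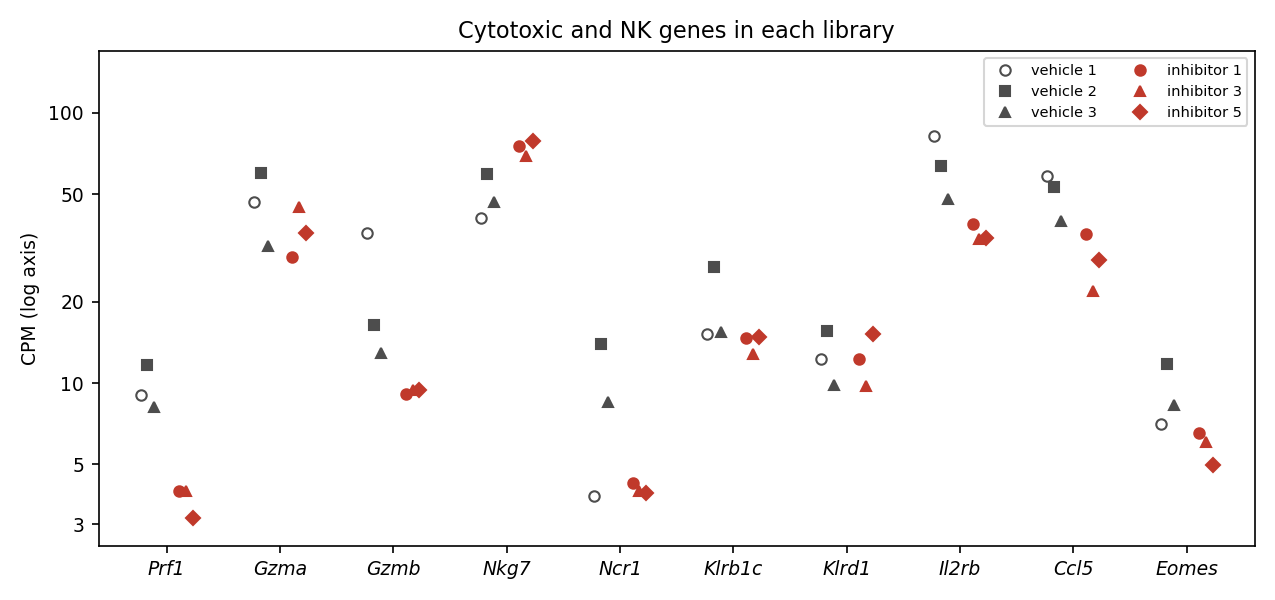
CPM on a log axis for the 10 genes; each point is 1 library, grey for vehicle and red for inhibitor, with vehicle 1 as an open circle. The inhibitor points of Prf1 lie between 3.17 and 4 CPM, below all vehicle points, those of Nkg7 lie above all vehicle points, and vehicle 1 lies with the inhibitor libraries in Ncr1.

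Prf1 (chromosome 10, 61297833 to 61304680, GRCm38), the gene for perforin, had vehicle values of 9.01, 11.7 and 8.13 CPM, against inhibitor values of 4, 3.98 and 3.17 CPM. The lowest vehicle library was thus well above the highest inhibitor library, and vehicle 1 lay between the other vehicles. This came to -1.37 ± 0.22 on the log2 scale (SE, 3 libraries a group; edgeR adjusted p = 0.0403). Without vehicle 1 the value was -1.41 (adjusted p = 0.0119). The call was lost when any other single library was left out, with log2 fold changes of -1.20 without vehicle 2, -1.48 without vehicle 3 and -1.42, -1.41 and -1.26 without inhibitors 1, 3 and 5. The adjusted p in those fits ran from 0.0681 to 0.17, and limma voom over all libraries gave 0.0547. Without vehicle 3 or any single inhibitor library, edgeR called 0 of all tested genes, so the loss there was not particular to Prf1.

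Gzma (chromosome 13, 113093825 to 113100981), the gene for granzyme A, had per gene length a higher level than granzyme B in both groups. It had vehicle values of 46.7, 59.9 and 32.3 CPM, against inhibitor values of 29.4, 45 and 36.0 CPM. The groups overlapped, with vehicle 3 below 2 of the 3 inhibitor libraries, and the log2 fold change was -0.33 ± 0.25 (SE; edgeR adjusted p = 0.479). It was -0.10 without vehicle 2, -0.53 without vehicle 3 and -0.18 without inhibitor 1.

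Gzmb (chromosome 14, 56258838 to 56262260), the gene for granzyme B, had vehicle values of 35.9, 16.4 and 12.9 CPM, against inhibitor values of 9.08, 9.41 and 9.46 CPM. Inhibitor libraries were nearly level, with a coefficient of variation of 2.24%, while vehicle 1 was 2.45 times the mean of vehicles 2 and 3. The log2 fold change was -1.22 ± 0.37 (SE; edgeR adjusted p = 0.121). Without vehicle 1 it was -0.65 ± 0.15 and passed (adjusted p = 0.0432). The coefficient of variation of the vehicle libraries was 57.1% with vehicle 1 included. The ratio of Gzmb to Gzma counts was 0.77 in vehicle 1, 0.274 and 0.399 in vehicles 2 and 3, against 0.309, 0.209 and 0.263 under inhibitor.

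Nkg7 (chromosome 7, 43437073 to 43438249) encodes a membrane protein of cytotoxic granules that is needed for their efficient release. It had vehicle values of 40.9, 59.6 and 46.7 CPM, against inhibitor values of 75.5, 69.4 and 78.6 CPM. All inhibitor libraries were above all vehicle libraries, opposite to the other genes whose groups did not overlap. The log2 fold change was 0.60 ± 0.16 (SE; edgeR adjusted p = 0.0893), and 0.49 without vehicle 1. It did not pass in this test, and passed with DESeq2 (adjusted p = 0.0223).

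The ratio of Nkg7 to Prf1 was higher in every inhibitor library than in any vehicle library. Nkg7 had 4.54, 5.11 and 5.74 times the counts of Prf1 under vehicle, against 18.9, 17.4 and 24.8 times under inhibitor. This pair was chosen after the values were seen and its ratio is given without a test. In bulk marrow the reads of Nkg7 and Prf1 may come from different cells, which was not tested.

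Ncr1 (chromosome 7, 4337724 to 4345164), the gene for the activating receptor NKp46, had vehicle values of 3.82, 13.9 and 8.48 CPM, against inhibitor values of 4.26, 3.98 and 3.91 CPM. Vehicle 1 lay below every inhibitor library, whereas vehicles 2 and 3 lay well above them. Inhibitor against vehicle, the log2 value was -1.11 ± 0.43 (SE; edgeR adjusted p = 0.194) with all libraries. Without vehicle 1 it was -1.46 ± 0.23 and passed (adjusted p = 0.013). Without vehicle 2 it was -0.61 (adjusted p = 0.39).

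Klrb1c (chromosome 6, 128778485 to 128789215), the gene for NK1.1, had vehicle values of 15.2, 26.8 and 15.4 CPM, against inhibitor values of 14.7, 12.8 and 14.9 CPM. Vehicles 1 and 3 were only slightly above the highest inhibitor library, and vehicle 2 alone was clearly higher. On the log2 scale the difference was -0.44 ± 0.25 (SE; edgeR adjusted p = 0.341), and it was -0.11 without vehicle 2. In GENCODE the gene shares 413 exonic bases with Gm44511 on the same strand and has close relatives nearby, so its reads may be split between genes.

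Klrd1 (chromosome 6, 129591782 to 129598775), the gene for CD94, had vehicle values of 12.3, 15.6 and 9.83 CPM, against inhibitor values of 12.3, 9.75 and 15.2 CPM. The groups covered nearly the same range. The fitted log2 difference was -0.014 ± 0.24 (SE; edgeR adjusted p = 0.977). Counts of Ncr1 were 0.311 times those of Klrd1 in vehicle 1, 0.894 and 0.862 times in vehicles 2 and 3, against 0.346, 0.408 and 0.257 times under inhibitor, so that vehicle 1 lay within the range of the inhibitor libraries.

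Il2rb (chromosome 15, 78479256 to 78495271) encodes the beta subunit shared by the receptors for interleukins 2 and 15. It had vehicle values of 81.9, 63.6 and 48.0 CPM, against inhibitor values of 38.7, 34.0 and 34.4 CPM. All vehicle libraries were above all inhibitor libraries, vehicle 1 the most. As a log2 fold change this was -0.85 ± 0.20 (SE; edgeR adjusted p = 0.0712), and -0.64 ± 0.14 without vehicle 1, where it passed (adjusted p = 0.0376).

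Il2rg, the gamma subunit that pairs with it and is also part of other cytokine receptors, fell by 0.87 ± 0.15 (SE) on the log2 scale (edgeR adjusted p = 0.042), with means of 79 ± 12.5 CPM under vehicle and 43.1 ± 3.84 CPM under inhibitor (SD, n = 3 each). Il15, the cytokine that this receptor binds, rose by 0.90 ± 0.16 on the same scale (adjusted p = 0.0453), with means of 12 ± 1.02 and 22.4 ± 2.99 CPM. The gene for the alpha subunit of the interleukin 2 receptor, Il2ra, had a value of 1.95 ± 0.39 without passing (adjusted p = 0.0553), and Il15ra, which presents interleukin 15, one of 0.04 ± 0.19. Il2ra was at 1.40 to 1.49 CPM in the vehicle libraries and at 2.83 to 7.84 CPM in the inhibitor libraries. Thus the beta and gamma subunits lay lower with the inhibitor while the ligand lay higher. Of the 16 tested genes in the list of interleukin 2, 15, 12 and 18 signalling, Il2rg and Il15 were the ones called by edgeR. Before adjustment, 5 of the 16 were lower and 3 higher at p under 0.05, where 11.9% and 9.68% of all tested genes were. DESeq2 called 5 of them lower and 2 higher, against 7.23% and 4.9% of all.

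Ccl5 (chromosome 11, 83525778 to 83530518), the gene for the chemokine RANTES that memory T cells and NK cells secrete, had vehicle values of 58.5, 53.0 and 39.7 CPM, against inhibitor values of 35.5, 22.0 and 28.6 CPM. The lowest vehicle library was close above the highest inhibitor library. edgeR put the log2 fold change at -0.81 ± 0.22 (SE; edgeR adjusted p = 0.0924), and -0.69 without vehicle 1.

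Ccr1 and Ccr3, receptors for this chemokine, had log2 values of 0.37 ± 0.19 and -0.16 ± 0.32 (SE), neither passing. Cx3cr1, the fractalkine receptor found on maturing NK cells and on monocytes, fell by 1.71 ± 0.17 (SE) on the log2 scale (edgeR adjusted p = 0.0223), with means of 45.2 ± 8.58 CPM under vehicle and 13.8 ± 1.21 CPM under inhibitor (SD, n = 3 each). Cxcr3, a receptor of activated T and NK cells, had -0.96 ± 0.29, and Cxcr4, which holds many blood cells in the marrow, had 0.81 ± 0.33, neither passing. Of the 12 lymphocyte trafficking receptors reported, 1 was called lower by edgeR, Cx3cr1, and 0 were called higher. Before adjustment, 2 were lower and 1 higher at p under 0.05, where 11.9% and 9.68% of all tested genes were. DESeq2 called 2 of them lower and 0 higher, against 7.23% and 4.9% of all.

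Eomes (chromosome 9, 118478212 to 118486132), the lowest of the set per length, had vehicle values of 7.04, 11.7 and 8.31 CPM, against inhibitor values of 6.51, 6.07 and 4.98 CPM. The groups did not overlap, but vehicle 1 was close to inhibitor 1. The estimate was, in log2 units, -0.63 ± 0.24 (SE; edgeR adjusted p = 0.194). It was -0.77 without vehicle 1 and -0.39 without vehicle 2 (adjusted p = 0.387). An antisense gene, Gm33460, shares 118 exonic bases with it, and the library chemistry does not mark strand.

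Its relative Tbx21 (T-bet) differed by -1.12 ± 0.28 (SE, log2 scale) without passing (edgeR adjusted p = 0.0782). Among 18 tested transcription factors of NK and T cells 0 passed by edgeR. At p under 0.05 before adjustment 4 were lower and 1 higher, where 11.9% and 9.68% of all tested genes were. DESeq2 called 4 of the 18 lower and 1 higher, against 7.23% and 4.9% of all. The smallest edgeR p among these factors was that of Prdm1, which encodes BLIMP-1, at -1.50 ± 0.30 (adjusted p = 0.0563). Next came Bcl11b, a T-cell factor, at -1.44 ± 0.33, and Lef1, active in early lymphocytes, at 1.35 ± 0.32.

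**Figure D2:**
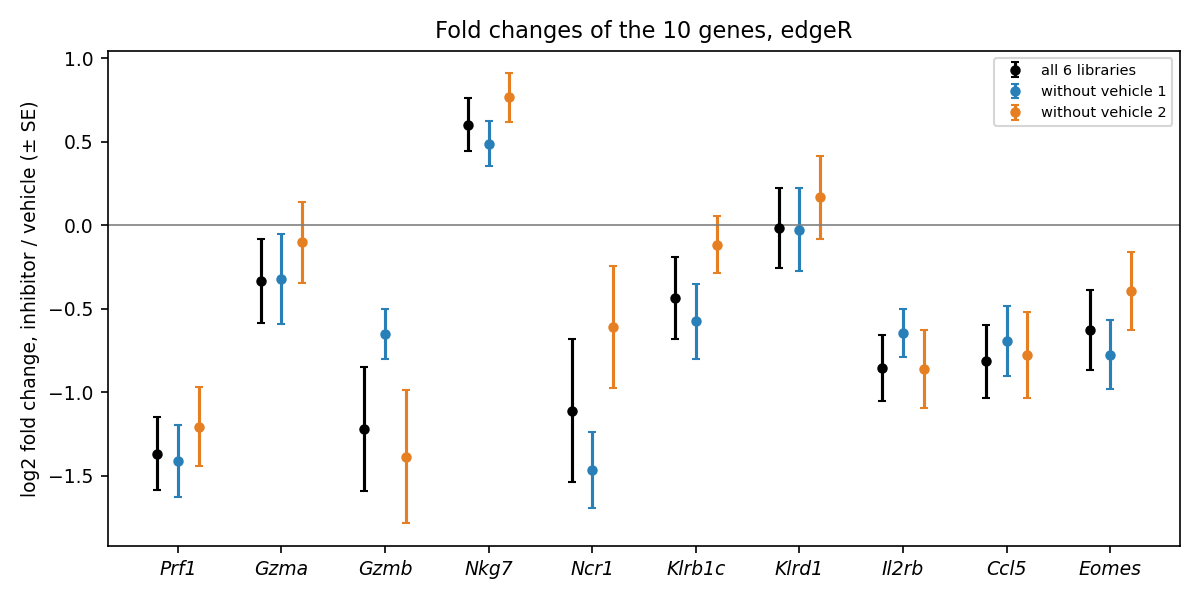
Log2 fold changes of the 10 genes, inhibitor against vehicle, by edgeR; points are estimates and bars ± SE, in black for all 6 libraries, in blue without vehicle 1 and in orange without vehicle 2. Prf1 stays between -1.20 and -1.41 in these 3 fits, while Gzmb moves from -1.22 to -0.65 without vehicle 1 and Ncr1 from -1.11 to -1.46.

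Vehicle 1 did not shift the 10 genes in a single direction. Among the vehicles it had the lowest value in 4 genes (Nkg7, Klrb1c, Ncr1 and Eomes), the highest in 3 (Gzmb, Il2rb and Ccl5) and the middle value in 3 (Prf1, Gzma and Klrd1). Relative to the mean of vehicles 2 and 3, it ran from 0.341 times in Ncr1 to 2.45 times in Gzmb. When vehicle 1 was left out, 4 of the 10 genes were called lower (Prf1, Gzmb, Ncr1 and Il2rb) where 4.89% of the 12946 genes tested in that fit were, and 0 were called higher, against 3.1%. The plot of fold changes with and without single vehicle libraries shows which genes move.

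Per kilobase of gene length, the scale on which genes can be compared, Ccl5 had the highest level in vehicle marrow at 94.9 ± 18.2 CPM per kilobase (SD, n = 3). Nkg7 followed at 60.3 ± 11.8, Gzma at 52.7 ± 15.7, Il2rb at 23.9 ± 6.3, Gzmb at 15.3 ± 8.77, Klrd1 at 14.5 ± 3.33, Klrb1c at 7.27 ± 2.52, Ncr1 at 5.97 ± 3.46, Prf1 at 4.67 ± 0.894 and Eomes at 2.43 ± 0.654 CPM per kilobase. The ranges of the vehicle libraries did not overlap between the neighbours Ccl5 and Nkg7, Gzma and Il2rb, Klrd1 and Klrb1c, or Prf1 and Eomes. They overlapped between all other neighbours in this order.

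In inhibitor marrow Nkg7 came first at 91.6 ± 5.73 CPM per kilobase (SD, n = 3), before Ccl5 at 54.0 ± 12.7 and Gzma at 41.9 ± 8.9. Klrd1 at 14.3 ± 3.13 came before Il2rb at 13.2 ± 0.965 and Gzmb at 6.58 ± 0.147, and Klrb1c (5.37 ± 0.425), Ncr1 (2.77 ± 0.128), Prf1 (1.81 ± 0.231) and Eomes (1.58 ± 0.211) kept their places. Ranges of neighbours overlapped there between Ccl5 and Gzma, Klrd1 and Il2rb, and Prf1 and Eomes. Nkg7 and Ccl5, at the top of both orders, had changed places. The mean of Klrd1 was below those of Gzmb and Il2rb under vehicle and above both under inhibitor, but part of this order rested on single libraries. Under vehicle, Gzmb was above Klrd1 in vehicle 1 alone, and under inhibitor, Klrd1 was above Il2rb in inhibitor 5 alone.

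**Figure D3:**
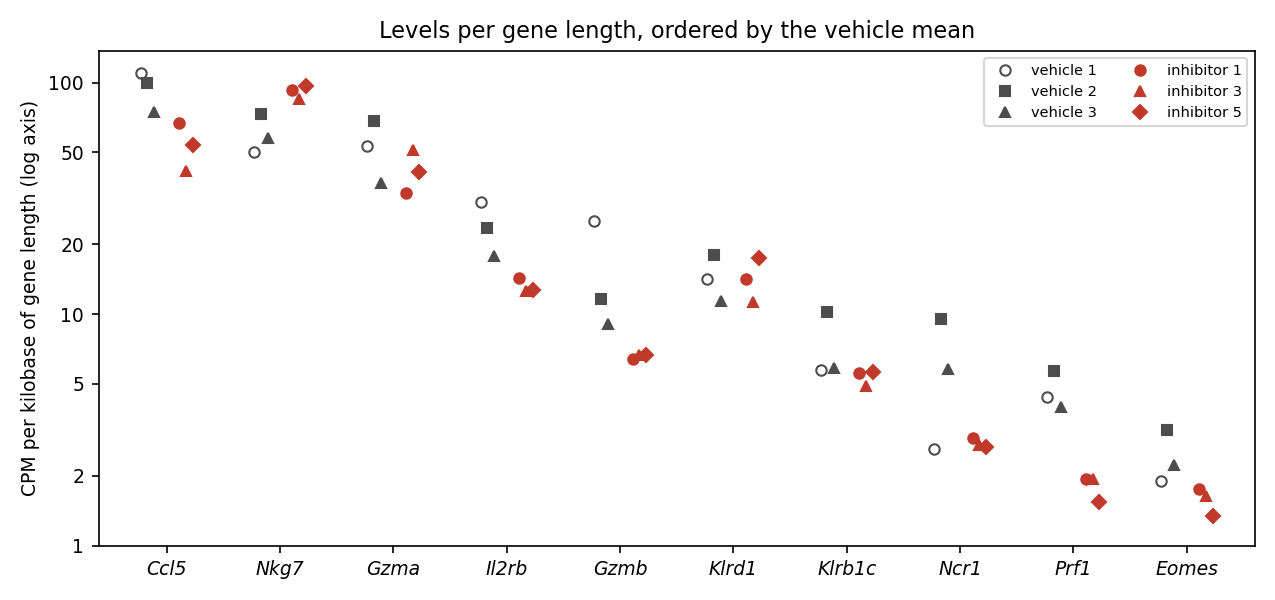
CPM per kilobase of gene length on a log axis, genes ordered by the vehicle mean; each point is 1 library, grey for vehicle and red for inhibitor, with vehicle 1 open. Ccl5 is highest in vehicle libraries (mean 94.9) and Nkg7 in inhibitor libraries (mean 91.6), and Eomes is lowest in both.

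Beyond the 10 genes, 7 lists of the cytotoxic and NK pathway held 120 tested genes reported here. Of these, 3 were called lower (Ctsc, Il2rg and Cx3cr1) and 1 higher (Il15), where 1.19% of all tested genes were called lower and 0.633% higher. Like Prf1, these 4 lost their calls in edgeR when vehicle 3 or any single inhibitor library was left out. In those fits edgeR called 0 of all tested genes, so the losses there were not particular to these genes. Il2rg and Il15 lost their calls also without vehicle 2. Il2rg and Il15 also lost theirs with limma voom (adjusted p = 0.0537 and 0.0547), and Ctsc, Il2rg and Il15 with the replicate number as a block. Their log2 fold changes with 1 library left out ran from -1.64 to -1.43 for Ctsc, from -0.94 to -0.74 for Il2rg, from -1.82 to -1.55 for Cx3cr1 and from 0.82 to 1.01 for Il15, so no value changed sign. In the list of other cytotoxic effector genes, 1 of 16 tested genes was called: Ctsc, the gene for cathepsin C, the protease that activates granzymes and also the serine proteases of neutrophils. Ctsc fell by 1.51 ± 0.16 (SE) on the log2 scale (edgeR adjusted p = 0.0234), with means of 745.1 ± 43.8 CPM under vehicle and 262.4 ± 42.1 CPM under inhibitor (SD, n = 3 each). Marrow myeloid cells also make it. Serpinb9b, a granzyme inhibitor gene at under 1.2 CPM in every library, had -2.45 ± 0.52, and Lamp1, a lysosome and granule membrane protein, had -0.71 ± 0.19, neither passing. Gzmm, granzyme M, had -1.12 ± 0.40, and Srgn, the proteoglycan that packs granule proteases in lymphoid and myeloid cells, had 0.48 ± 0.19. The list had a median of -0.55, with 12 of 16 genes negative. Before adjustment, 7 of the 16 were lower and 2 higher at p under 0.05, where 11.9% and 9.68% of all tested genes were. DESeq2 called 4 of the list lower and 0 higher, against 7.23% and 4.9% of all.

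Most genes of the machinery that docks and releases granules had positive values. Of 13 tested genes 0 were called by edgeR, and 10 of 13 values were positive with a median of 0.26. At p under 0.05 before adjustment 2 were lower and 0 higher, where 11.9% and 9.68% of all tested genes were. DESeq2 called 2 of the 13 lower and 0 higher, against 7.23% and 4.9% of all. Sytl2, a tethering protein of cytotoxic granules, had -1.25 ± 0.25 (SE; edgeR adjusted p = 0.0572), Arl8b, which moves lysosomes, had -0.35 ± 0.11, and Vamp8, a fusion protein, had 0.33 ± 0.15. Many of these genes also serve granule release in neutrophils.

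Among 26 other tested NK receptors 0 were called by edgeR, and 19 of 26 values were negative with a median of -0.44. At p under 0.05 before adjustment 4 were lower and 1 higher, where 11.9% and 9.68% of all tested genes were. DESeq2 called 2 of the 26 lower and 0 higher, against 7.23% and 4.9% of all. Klra9, an inhibitory Ly49 receptor, had -1.67 ± 0.36 (SE; edgeR adjusted p = 0.0619), Cd160 -1.05 ± 0.34 and Crtam -1.03 ± 0.35. Ly49 genes are near copies of each other, so the counts of Klra9 are uncertain. Klrc1, the partner of Klrd1, had -0.27 ± 0.29, and Klrk1, the activating receptor NKG2D, had -0.49 ± 0.23.

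Among 19 tested adaptors and kinases of these receptors 0 were called by edgeR, and the median was -0.29. At p under 0.05 before adjustment 6 were lower and 2 higher, where 11.9% and 9.68% of all tested genes were. DESeq2 called 4 of the 19 lower and 2 higher, against 7.23% and 4.9% of all. The kinases Fyn, Zap70 and Lck had -0.75 ± 0.17, -1.11 ± 0.25 and -0.75 ± 0.18 (SE), with groups that did not overlap and edgeR adjusted p from 0.0665 to 0.0759. The adaptors Hcst (DAP10) and Tyrobp (DAP12) had 0.66 ± 0.16 and 0.42 ± 0.14, while Cd247, the zeta chain used by the T-cell receptor and NKp46, had -0.61 ± 0.25. Tyrobp was at 552 to 866 CPM and is also an adaptor of myeloid receptors.

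**Figure D4:**
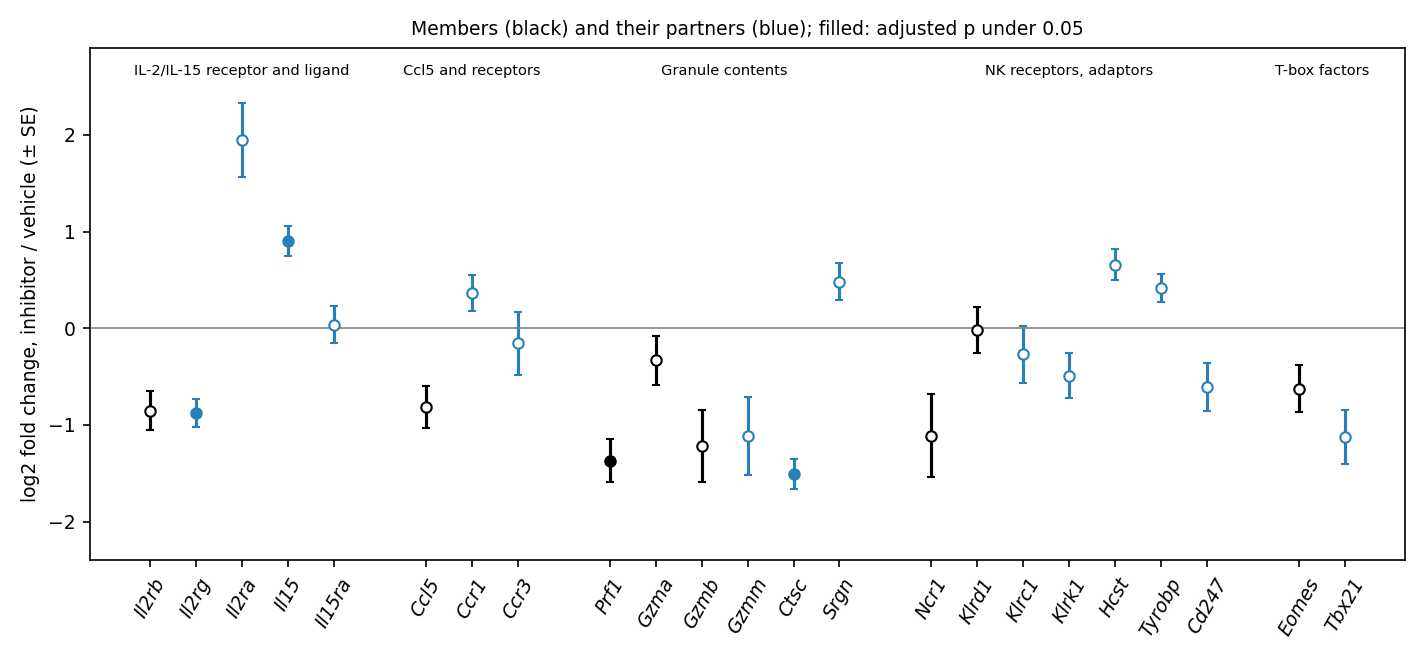
Log2 fold changes (inhibitor against vehicle, points with ± SE bars, edgeR over 6 libraries) for members of the set in black and for genes that act with them in blue; filled points have an adjusted p under 0.05. Prf1, Ctsc and Il2rg are the filled points below 0 and Il15 the filled point above it.

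Genes of other cells differed in the same contrast, and their part in the values above was not tested. Of 18 tested T-cell receptor complex and surface genes, which cytotoxic T cells also express, 14 were negative with a median of -0.83. There 0 were called by edgeR. At an unadjusted p under 0.05, 8 were lower and 0 higher, where 11.9% and 9.68% of all tested genes were. DESeq2 called 5 of the 18 lower and 0 higher, against 7.23% and 4.9% of all. Their summed level was 129 to 192 CPM in vehicle and 109 to 133 CPM in inhibitor libraries. In bulk marrow, NK cells and cytotoxic T cells cannot be told apart as the source of genes they share. Macrophage markers summed to 1465 to 5195 CPM in vehicle and 370.3 to 593.5 CPM in inhibitor libraries. Of these markers 5 of 9 were called lower by edgeR (Spic, Mertk, Cd5l, Adgre1 and Vsig4). All 9 were lower at an unadjusted p under 0.05, and DESeq2 called all 9 lower. Of 6 monocyte markers 1, Fcgr1, was called lower by edgeR, 2 were lower at an unadjusted p under 0.05, and DESeq2 called 2 lower.

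Neutrophil markers summed to 36291 to 58032 CPM in vehicle and 95732 to 112071 CPM in inhibitor libraries. Of these markers 7 of 7 were positive and 2 were called higher by edgeR (Camp and Elane). At an unadjusted p under 0.05 all 7 were higher, where 9.68% of all tested genes were. DESeq2 called all 7 higher, against 4.9% of all. The log2 fold change of Elane no longer passed with upper-quartile scaling (adjusted p = 0.0508). The neutrophil markers had the sign of Nkg7. So did 8 of 9 B-lineage, 6 of 8 basophil and mast cell, and 5 of 6 platelet marker genes. Basophil and mast cell markers, cells that can also hold granzyme B, summed to 664.5 to 803 CPM in vehicle and 725.2 to 1053 CPM in inhibitor libraries, with 0 of 8 called by edgeR, 1 higher and 0 lower at p under 0.05 before adjustment, and 1 higher by DESeq2. Markers of platelets and their precursors, which can carry Ccl5, summed to 50.7 to 214 CPM in vehicle and 32.4 to 221 CPM in inhibitor libraries, so that the groups overlapped. Of 9 B-lineage markers 2 were called higher by edgeR (Vpreb1 and Igll1). At p under 0.05 before adjustment 8 were higher and 0 lower, and DESeq2 called 7 higher and 0 lower. Plasmacytoid dendritic cell, conventional dendritic cell and other innate lymphoid cell lists each had 1 gene called by edgeR: Klk1 (lower), Cd209a (higher) and Il7r (higher). Klk1 was at only 0.186 to 1.59 CPM in the libraries. In the innate lymphoid list, 2 of 3 tested genes were positive. Erythroid and stroma lists had 0 by edgeR. At an unadjusted p under 0.05, 4 of 7 stroma genes were lower, where 11.9% of all tested genes were. DESeq2 called 4 stroma genes lower, against 7.23% of all, and 0 of 7 erythroid genes passed by either measure. In the conventional dendritic cell list 3 of 6 genes were negative, with a median of -0.12. Picked out after their values were seen, Xcr1 and Zbtb46 had -2.14 ± 0.68 and -0.97 ± 0.38, and Flt3 had 0.48 ± 0.16, none passing. Xcr1 was at only 0.0744 to 1.43 CPM in the libraries. Every gene of the count table had reads in at least 1 library, so detection of these markers does not show which cells were present.

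Over the 6 libraries, the genes whose log2(CPM + 1) followed the mean of the 10 genes most closely were Arf4, Isoc2b, St8sia6, Phf11b and Cass4, with Pearson correlations of 0.984 to 0.993 among 11542 genes ranked. None of these 5 passed the edgeR test. With so few libraries many genes reach such values, and between 0 and 4 of these 5 were again among the closest 5 when 1 library was left out.

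The authors' deposited table gives its own comparison, made with a test that no label or header names. There, in the authors' deposited table, 4 of the 10 genes had an adjusted p under 0.05 and were lower, where 6.97% of the 12806 genes tested here were, and 1 was higher, where 4.51% were. These were, by log2 fold change, Prf1 with -1.37 (adjusted p = 2.38e-06 in the authors' deposited table), Il2rb with -0.84 (0.0042), Gzmb with -1.21 (0.0162), Ccl5 with -0.81 (0.0168) and Nkg7 with 0.61 (0.0303). Ncr1 and Eomes had -1.11 (0.0837) and -0.62 (0.134) in the authors' deposited table, and Klrb1c, Gzma and Klrd1 had adjusted p of 0.367, 0.539 and 0.989 there.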

How the data were processed

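RNA from 6 mouse bone marrow samples (3 vehicle, 3 inhibitor) was made into cDNA with SMART-Seq v4 and into libraries with Nextera XT, per the labels' protocols. The submitters' processing notes name STAR, featureCounts and mm10, with no version. The authors deposited raw read counts for 14992 genes, with gene length and their own fold change (ratio), log2 fold change, p-value and adjusted p-value.

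Groups follow the labels. edgeR 4.0.16 in R 4.3.3 tested counts with filterByExpr, TMM scaling and, on group alone, the quasi-likelihood test, with Benjamini-Hochberg adjustment over 12806 genes. An SE is the absolute log2 fold change over the root of the F statistic, and CPM is per TMM-scaled library. The edgeR, DESeq2 and limma steps were tested on simulated data. Alternatives were 3 scalings, 2 filters, DESeq2 1.42.0, limma 3.58.1 voom with and without quality weights, an adjusted p under 0.10, a block for the replicate number, and leaving out each library. No library was a duplicate: the closest pair had a chi-square of 29.8 per degree of freedom.

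The members and lists were chosen with earlier results of these data known. Named genes are the 10 members, in each pathway list the called genes and the 3 with the smallest p, called genes of marker lists and the 5 genes most like the members; of the marker lists, the most abundant genes that the rule also allows are not named. Il15ra, Ccr1, Ccr3, Gzmm, Srgn, Klrc1, Klrk1, Hcst, Tyrobp, Cd247 and Tbx21 were chosen after their values were seen. Coordinates are from GENCODE M21 (GRCm38) and promoter windows from RefSeq (GRCm38.p6), the build that mm10 names. 1 gene of the lists is not reported here.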

Additional observations from a re-analysis of the deposited data

How the results depend on the processing

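The 1 member called lower (Prf1) and 0 called higher were 4 and 1 with the DESeq2 Wald test, 6 and 1 with limma voom and quality weights, 3 and 1 at an adjusted p under 0.10 (4.95% and 3.3% of all genes), and 0 lower with limma voom. Vehicle 1 had a weight of 0.161 among those quality weights. When 1 library was left out, between 0 and 4 members were called lower and 0 higher, and the median of the 10 genes ran from -0.82 to -0.50. The 0 calls come without vehicle 2, vehicle 3 or any inhibitor library, where 7, 0, 0, 0 and 0 of all genes were called higher and 84, 0, 0, 0 and 0 lower by edgeR, with 1832 to 2707 genes at an unadjusted p under 0.05. DESeq2 with a library left out was not run. The labels do not say whether the shared replicate numbers 1 and 3 pair the libraries. Correlations of deviations were -0.514 and -0.103, and with so few libraries they cannot decide it. With the shared numbers as a replicate block in 4 libraries, 0 members were called lower, and the median was -0.39. In that fit 110 of 12842 genes (0.857%) were called lower and 8 higher. Over 16 alternatives Prf1 stayed called in 9 and had an adjusted p of 2.49e-06 to 0.366. These 9 are not independent. They include the threshold of 0.10 on the main fit, which no called gene can lose, and 3 scalings and 2 filters of the same edgeR test. Signs turned for Klrd1 with limma voom (0.036) and without vehicle 2 (0.17) or inhibitor 3 (0.139; range with 1 library left out -0.182 to 0.17), for Klrc1 without vehicle 2 (0.032; -0.516 to 0.032), for Il15ra without vehicle 3 (-0.085) or inhibitor 1 (-0.028; -0.085 to 0.192), and for Ccr3 without inhibitor 3 (0.034; -0.409 to 0.034). The cause of these moves was not tested. Over all genes, edgeR called 81 higher and 153 lower, DESeq2 628 and 926, limma voom 30 and 55, and voom with quality weights 1374 and 1483. The filters and scalings changed no member's call, except that Ncr1 was not tested at 5 CPM in 3 libraries. Genes at a few CPM, such as Prf1, Ncr1 and Eomes, rest on 107 to 533 counts per library.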
